A study of Rattus norvegicus and Mus musculus with 22 samples.

Results

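The genes described here encode the parts of the motile cilium, the beating organelle that covers the ciliated cells of the airway. They were chosen by name: all Dnah, Dnai, Cfap, Rsph, Tekt and Drc genes followed by a number, together with Foxj1, Hydin, Spag17 and Tppp3. In rat whole lung 61 of 23932 gene symbols met this rule, and 59 of them had a mean of at least 0.5 CPM, the counts of a gene scaled to a common library size, in 1 or more of the 4 lung groups. The 59 comprised 29 Cfap genes, 11 dynein heavy chains (Dnah), 6 radial spoke genes (Rsph), 5 tektins, 3 subunits of the dynein regulatory complex (Drc), 2 dynein intermediate chains (Dnai), 2 central pair genes (Hydin and Spag17) and Tppp3. Rsph6a and Cfap97d1 stayed under that level. Foxj1 was not listed under that symbol for the lung libraries of either day, so it has no values here.

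A motile cilium has a core, the axoneme, in which a ring of doublet microtubules surrounds a central pair. Dynein arms on each doublet, built from very large heavy chains and smaller intermediate chains, walk along the neighbouring doublet. The dynein regulatory complex and the radial spokes pass signals from the central pair to the arms, and tektins line the inside of the doublets. In the lung these genes are known as markers of the multiciliated cells that clear mucus, and loss of many of them causes primary ciliary dyskinesia.

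The lungs came from rats with pulmonary hypertension induced by Sugen-hypoxia, where a blocker of the VEGF receptor is combined with low oxygen. The 4 groups were wild type (WT) at day 7, IL6-KO at day 7, WT at day 56 and IL6-KO at day 56, with 3 libraries each. The IL6-KO rats (IL6KO below) lack the cytokine interleukin 6. All 12 lungs had received Sugen-hypoxia, so no group shows the genes without it, and the labels give no strain, sex or age. Day 7 and day 56 came as separate tables, so day and table cannot be told apart. Lung CD4-positive cells isolated with magnetic beads at day 7 (2 WT and 2 IL6KO libraries), and sorted splenic CD4-positive cells of mice that carry the Ai14 reporter and SM22alpha-Cre (3 tdTomato-positive and 3 tdTomato-negative libraries), are used below for levels only. In those mice the SM22alpha promoter drives the Cre.

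Lung libraries held 14415060 to 23590070 counts. Il6 itself gave few reads in whole lung: WT libraries had 5, 11 and 6 counts at day 7 and 6, 6 and 5 at day 56, while IL6KO libraries had 8, 5 and 2 at day 7 and 0, 2 and 3 at day 56. Its counts overlapped between genotypes at day 7 and did not at day 56, so that Il6 reads do not check the genotype labels at day 7. Which exons the deletion removes is not given in the sources used here. The lung label fits the alveolar marker Sftpc, at 10811 to 15674 CPM in the 12 libraries. Scgb1a1, the secretory protein of the club cells that neighbour ciliated cells, lay between 4976 and 11991 CPM.

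The promoters of these genes are shown first, because the factors that switch on motile cilia genes, the RFX family and FOXJ1, bind short known sequences. RefSeq promoters of rat build GRCr8 were matched by symbol for 46 of the 59 genes, and the 250 bases before each start were searched on both strands. A full RFX site was taken as GTTNC followed after 3 or 4 bases by GNAAC, where N is any base. It stood in 10 of the 46 promoters (21.7%), against 1.44% of 33393 other promoters and 1.29% of the 21775 of these that belong to protein-coding genes. With 3 bases between its parts it stood in 7 member promoters (15.2%, against 0.71% of the others), and with 4 bases in 3 (6.52%, against 0.731%). The shorter half-site GTTGCC, which can lie inside a full site, was found in 26.1% against 9.86%. The forkhead sequence GTAAACA was found in 4.35% against 3.21%. Beside the 6 genes printed here, Dnai2, Tekt4, Cfap44 and Cfap298 carried the full site.

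The 60 bases around the site are printed, 5′ to 3′ with the site in capitals, for 6 genes that stand for the inner and outer dynein arms, the central pair and the tektins.
Dnah6: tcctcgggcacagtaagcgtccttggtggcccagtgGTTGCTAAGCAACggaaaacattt
Dnah7: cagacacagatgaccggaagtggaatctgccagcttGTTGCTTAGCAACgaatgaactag
Dnah9: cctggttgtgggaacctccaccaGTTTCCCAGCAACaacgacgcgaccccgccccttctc
Hydin: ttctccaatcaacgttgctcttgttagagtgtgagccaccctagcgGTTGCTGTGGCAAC
Dnai1: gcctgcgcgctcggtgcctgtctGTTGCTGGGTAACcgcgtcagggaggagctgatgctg
Tekt2: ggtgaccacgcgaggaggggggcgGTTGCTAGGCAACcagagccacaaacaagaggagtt

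These windows lie in GRCr8 as follows. Dnah6 at chr4:106842365-106842424 on the minus strand, with its site starting 24 bases before the gene's start. Dnah7 at chr9:62756616-62756675 on the minus strand, with its site starting 24 bases before the gene's start. Dnah9 at chr10:51364046-51364105 on the minus strand, with its site starting 119 bases before the gene's start. Hydin at chr19:55146406-55146465 on the plus strand, with its site starting 14 bases before the gene's start. Dnai1 at chr5:61525957-61526016 on the plus strand, with its site starting 99 bases before the gene's start. Tekt2 at chr5:143907725-143907784 on the minus strand, with its site starting 36 bases before the gene's start. A match is a description of the letters and does not show that a factor binds there.

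The first comparison asked whether motile cilia genes differ between IL6KO and WT lung at day 7 of the disease. None of the 54 members tested was called in either direction (an adjusted p under 0.05 from the quasi-likelihood fit of edgeR, where the Benjamini-Hochberg step covered every gene tested), where 0.933% of all genes tested were called higher and 1.16% lower. A single member reached an unadjusted p under 0.05 by edgeR, where 2045 of all 14368 genes tested did. DESeq2 and limma-voom called 0 members as well. The median log2 fold change of the members was 0.07, beside 0.003 over all genes tested, and 37 of 54 were above 0. In no member did the 3 IL6KO libraries lie wholly above or below the 3 WT libraries, whereas 9.09% of all genes lay wholly above and 9.66% wholly below. In bulk tissue, a change in the number of ciliated cells and a change in RNA per cell cannot be told apart, at day 7 or at day 56.

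The day 7 spread was set mostly within WT. WT library 1 held the highest value of 32 of the 55 members in that table, and WT library 3 the lowest value of 38. Summed over the members, WT libraries 1 to 3 gave 1704, 1383 and 1240 CPM and IL6KO libraries 1501, 1492 and 1621 CPM. The 3 IL6KO sums therefore lie inside the range of the 3 WT sums. Without WT library 1 the median log2 fold change was 0.20, and without WT library 3 it was -0.02.

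Tppp3, a tubulin-binding protein abundant in ciliated cells and also made by other cells, had the smallest adjusted p at day 7. It stood at 299.7, 253 and 252 CPM in WT and 295, 301 and 359 CPM in IL6KO. Its log2 fold change was 0.25 (SE 0.10, unadjusted p = 0.0363, adjusted p = 0.309 by edgeR). The WT and IL6KO values overlap. The members with the highest log2 fold changes were Rsph14 (0.29), Dnah9 (0.26) and Cfap65 (0.26), and those with the lowest were Cfap100 (-0.39), Cfap157 (-0.31) and Cfap53 (-0.15). Cfap100 reached 42.7 CPM in WT library 1 and 24.7 and 16.1 CPM in the other WT libraries, around 17.9, 20.8 and 24.5 CPM in IL6KO.

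**Figure D1:**
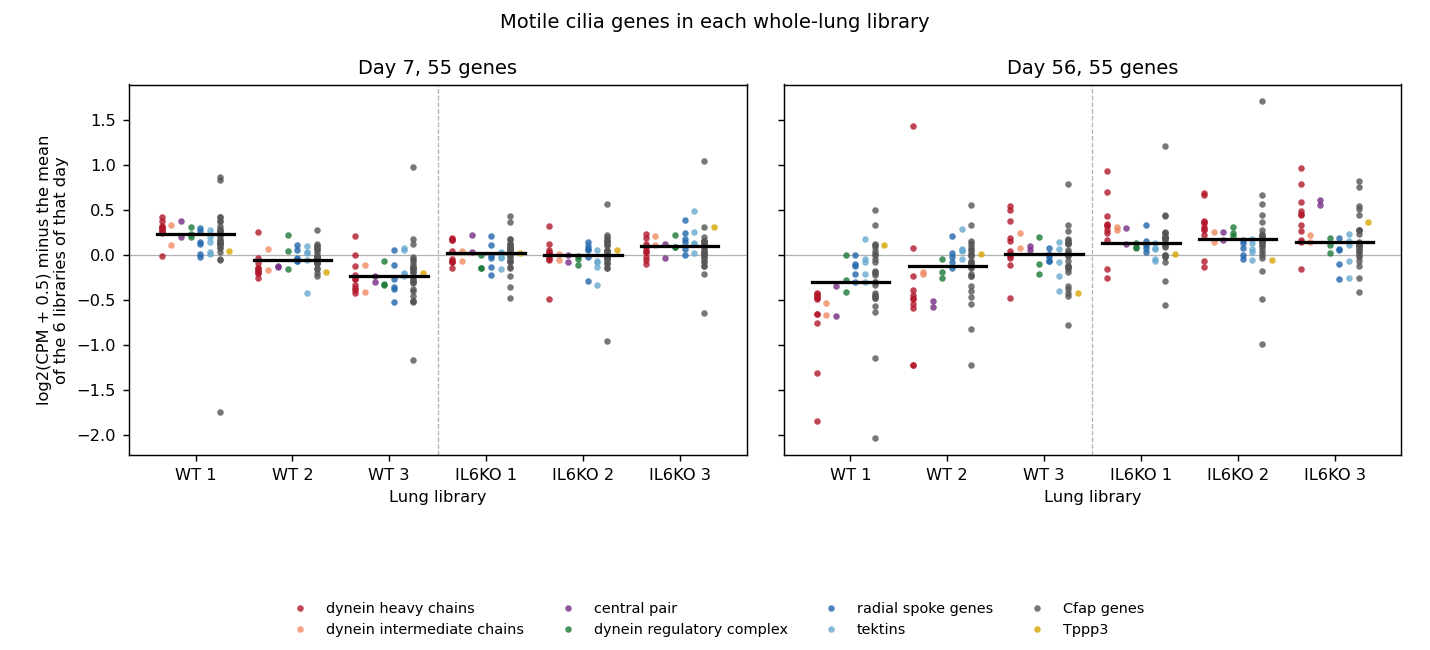
Each point is 1 motile cilia gene in 1 whole-lung library, as log2(CPM + 0.5) minus the mean of the 6 libraries of that day (y axis), by library (x axis); colours mark gene families and black bars the library medians. At day 7 the medians run from -0.24 in WT 3 to 0.23 in WT 1 with IL6KO between, and at day 56 the WT medians (-0.31, -0.12 and 0.00) lie below the IL6KO medians (0.13, 0.17 and 0.14).

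At day 56 most motile cilia genes read higher in IL6KO than in WT lung, but none passed the test across all genes. The median log2 fold change of the 54 members tested was 0.28, beside -0.01 over all genes, and 44 of 54 were above 0. In 26 of 54 members (48.1%) the 3 IL6KO libraries lay wholly above the 3 WT libraries, against 8.3% of all genes, and 1 member (Cfap100) lay wholly below, against 8.55%. The calls were 0 in either direction with edgeR, where 0% of all genes were called higher and 0.0138% lower. At an unadjusted p under 0.05 by edgeR there were 24 members, all higher in IL6KO. Of all 14475 genes tested, 901 reached it higher and 748 lower. The smallest adjusted p of a member was 0.353.

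The number of calls turned on the tool and on 1 library. DESeq2 called 6 members, all higher in IL6KO (Cfap74, Cfap99, Dnah2, Dnah7, Dnah9 and Dnah11), where it called 0.684% of all genes higher, and limma-voom called 0. Without WT library 3 edgeR called 17 members, all higher in IL6KO, but then 5.4% of all genes were also called higher and 3.23% lower. Without that library 36 of 54 members lay wholly above WT (66.7%), against 23.7% of all genes. Leaving out any of the other 5 libraries left 0 calls and 27 to 29 members wholly above, against 10.8% to 14.3% of all genes.

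The dynein heavy chains, the motors of the arms, had the widest difference at day 56. Of 10 tested, 9 had IL6KO wholly above WT, against 8.3% of all genes. The median log2 fold change of the 10 was 0.68, beside 0.23 for the other members. Other genes with transcripts of 8000 nucleotides or more had a median of 0.33 and 88.9% above 0, as given with the length trend. How many of those long genes lay wholly above WT was not counted, so 8.3% is no background for long genes. With an offset for transcript length, described there, the heavy chain median was 0.27, the same as that of the other members.

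Dnah5, a heavy chain of the outer arm that is often mutated in primary ciliary dyskinesia, stood at 3.90, 4.20 and 13.7 CPM in WT and 17.3, 17.2 and 18.4 CPM in IL6KO. WT libraries 1 and 2 were low and WT library 3 was close to the IL6KO libraries. The log2 fold change was 1.31 (SE 0.46, adjusted p = 0.414 by edgeR). With an offset for transcript length, described with the length trend, it was 0.95 (adjusted p = 0.459 by edgeR). Without WT library 3 it was 2.12 (adjusted p = 0.00626 by edgeR), but then 5.4% of all genes were also called higher.

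Dnah9, the outer-arm partner of Dnah5 towards the ciliary tip, stood at 33.7, 35.4 and 53.3 CPM in WT and 72.6, 69.1 and 75.2 CPM in IL6KO (log2 fold change 0.83, SE 0.18, adjusted p = 0.381 by edgeR). Dnah11, its counterpart at the ciliary base, stood at 34.8, 34.6 and 47.8 CPM in WT and 61.1, 59.5 and 66.8 CPM in IL6KO (log2 fold change 0.68, SE 0.14, adjusted p = 0.367 by edgeR). In both genes WT library 3 was the highest WT library and still lay under each IL6KO library.

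Among heavy chains of the inner arms, Dnah2 stood at 24.2, 23.6 and 30.5 CPM in WT and 39.3, 38.5 and 50.0 CPM in IL6KO, a log2 fold change of 0.71. Dnah1 (0.56), Dnah6 (0.64), Dnah7 (0.68) and Dnah12 (0.45) had log2 fold changes in the same direction. Read counts of Dnah3 were 5, 15 and 50 in WT against 77, 66 and 97 in IL6KO, and its log2 fold change was 1.67 with an SE of 0.75. Among all 10 heavy chains tested, of either arm, the exception was Dnah17, known from the outer arms of sperm tails, at -0.18. It overlapped between genotypes at 0.572, 1.02 and 1.53 CPM in WT and 0.791, 0.810 and 1.09 CPM in IL6KO. Dnah8 was too low to be tested: it gave 43 counts in WT library 2 of day 56 and 2 to 6 counts in the other 5.

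The outer-arm intermediate chains were Dnai1, at 8.89, 11.2 and 13.8 CPM in WT and 16.4, 15.7 and 14.5 CPM in IL6KO, and Dnai2, at 11.3, 16.0 and 21.7 CPM in WT and 22.1, 20.2 and 21.3 CPM in IL6KO. Their log2 fold changes were 0.46 and 0.38. IL6KO lay wholly above WT for Dnai1, while WT library 3 fell among the IL6KO values for Dnai2.

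Hydin, a giant protein of the central pair, stood at 41.4, 46.6 and 71.0 CPM in WT and 82.0, 79.4 and 97.6 CPM in IL6KO (log2 fold change 0.71, SE 0.20, adjusted p = 0.401 by edgeR). Spag17, which belongs to the same structure, stood at 22.7, 19.2 and 30.2 CPM in WT and 31.5, 32.6 and 44.5 CPM in IL6KO (log2 fold change 0.60, SE 0.20, adjusted p = 0.414 by edgeR). Neither gene's groups overlap, and again WT libraries 1 and 2 were the low ones. With an offset for transcript length, described with the length trend, the log2 fold changes were 0.26 for Hydin and 0.36 for Spag17.

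The dynein regulatory complex, which holds neighbouring doublets together, had log2 fold changes of 0.28 (Drc1), 0.23 (Drc3) and 0.39 (Drc7). Drc7 stood at 10.3, 13.5 and 12.9 CPM in WT and 14.8, 17.4 and 15.9 CPM in IL6KO. Drc1 and Drc7 did not overlap between genotypes and Drc3 did.

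The radial spoke genes differed less. Rsph1 (-0.02), Rsph9 (-0.05) and Rsph4a (0.27), which encode parts of the spoke head, overlapped between genotypes, as did Rsph3 (0.20). Rsph9 stood at 19.9, 20.2 and 21.1 CPM in WT and 21.0, 21.9 and 16.5 CPM in IL6KO, so that the lowest value was an IL6KO library. Rsph10b, at 30.2, 29.3 and 30.9 CPM in WT and 35.1, 36.4 and 33.7 CPM in IL6KO, was the 1 spoke gene without overlap. The direction of Rsph1 and Rsph9 turned with 1 library left out.

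The tektins had a median log2 fold change of 0.13. Tekt2 stood at 17.9, 19.6 and 14.2 CPM in WT and 20.7, 21.5 and 21.1 CPM in IL6KO (0.29), the only tektin without overlap. Tekt1 (0.13) and Tekt4 (0.08) overlapped, and Tekt5 (-0.29) was the lowest of the family. Tppp3 gave 456, 425 and 314 CPM in WT and 425, 403 and 542 CPM in IL6KO, with WT library 3 the lowest, the reverse of its place for the heavy chains.

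Of 26 Cfap genes tested at day 56, IL6KO lay wholly above WT in 10 and wholly below in 1. Of all genes, 8.3% lay wholly above and 8.55% wholly below. Cfap74, part of a projection of the central pair, stood at 4.37, 5.13 and 4.45 CPM in WT and 7.06, 8.50 and 8.92 CPM in IL6KO. Its log2 fold change of 0.81 (SE 0.17, adjusted p = 0.353 by edgeR) had the smallest adjusted p of all members, and all 3 WT libraries were low. Cfap43 and Cfap44 together tether an inner dynein arm, and both read higher in IL6KO without overlap (0.42 and 0.52). Cfap206 (0.28), Cfap126 (0.23) and Cfap65 (0.36) also did not overlap, and Cfap53 (0.30) did.

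Cfap20 and Cfap36, which many cell types without motile cilia make, had values near 0. Cfap20 stood at 52.6, 50.5 and 44.5 CPM in WT and 46.0, 48.4 and 50.7 CPM in IL6KO (-0.03), and Cfap36 had a log2 fold change of -0.003. Cfap100 was the 1 member wholly lower in IL6KO, at 31.6, 46.1 and 30.9 CPM in WT and 25.5, 27.5 and 29.8 CPM in IL6KO (-0.39).

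Counts of Cfap58 and Cfap58l1 are uncertain, because RefSeq lists the second name as a synonym of the first and reads may be split between them. Read counts of Cfap58 were 0, 47 and 10 in WT against 70, 107 and 21 in IL6KO, while those of Cfap58l1 were 86, 43 and 80 in WT against 31, 22 and 115 in IL6KO. Their log2 fold changes, 1.98 and -0.40, were the highest and the lowest of all members. The entries Cfap46_1 (0.21) and Cfap46_2 (1.24) likewise carry 1 gene name with 2 suffixes.

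**Figure D2:**
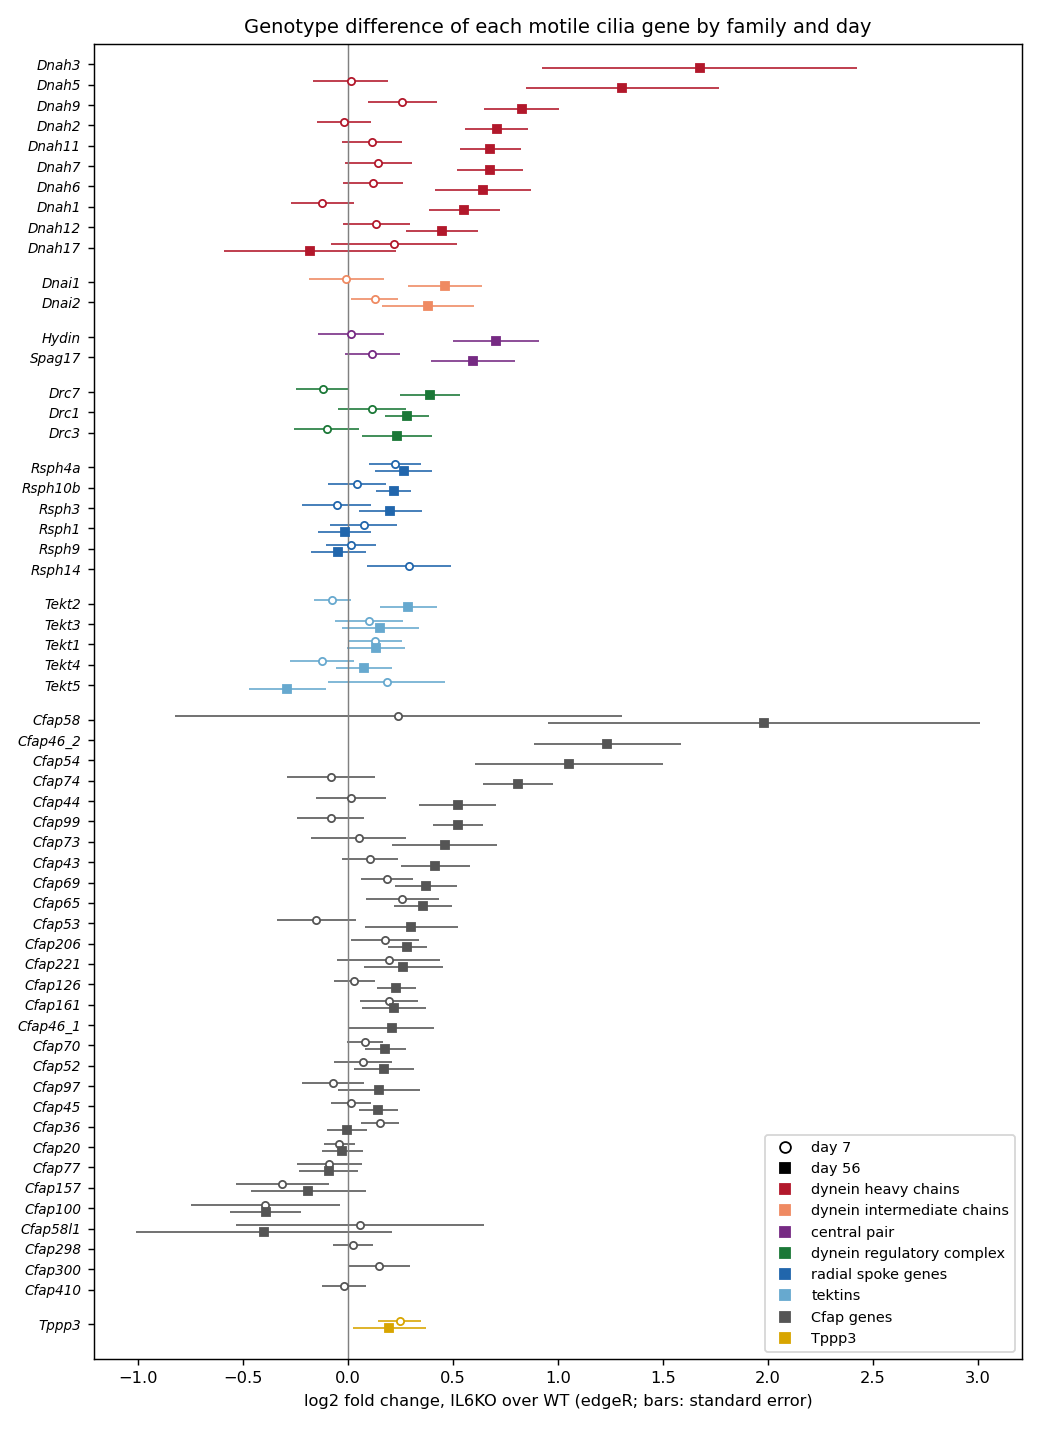
Log2 fold change of IL6KO over WT (x axis, bars are the standard error from edgeR) for each motile cilia gene (y axis) by family; open circles are day 7 and filled squares day 56, with 3 libraries per group. Day 7 values lie near 0, and at day 56 the dynein heavy chains (median 0.68) and the central pair genes (0.60 and 0.71) lie furthest to the right.

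The families that differed most at day 56 are also those with the longest transcripts, and transcript length moved with genotype over all genes in that table. Length was taken as the longest protein-coding mouse transcript of the same symbol (GENCODE M21), found for 53 of the 59 members (89.8%). Among genes that are not members, the median log2 fold change at day 56 was -0.13 for transcripts under 2000 nucleotides and 0.33 for those of 8000 or more, of which 88.9% were above 0. Members of the same classes had medians of 0.13 (15 genes) and 0.71 (11 genes). In each of the 4 length classes the members' median was thus above that of the other genes: the middle classes gave 0.27 against -0.04 and 0.42 against 0.09. Across genes, which are not independent replicates and share libraries, Spearman's rho between length and log2 fold change was 0.65 over 49 members and 0.44 over 12888 other genes at day 56. At day 7 it was 0.14 over 50 members and 0.09 over 12971 other genes.

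The length trend ran along the same libraries. For other genes of 8000 nucleotides or more, the median deviation from the day mean was -0.32 and -0.29 in WT libraries 1 and 2, 0.13 in WT library 3, and 0.14, 0.11 and 0.26 in IL6KO. For the dynein heavy chains it was -0.49, -0.48 and 0.04 in WT and 0.31, 0.31 and 0.44 in IL6KO. With a length-dependent offset fitted to each library on genes that are not members, chosen after seeing the data, the heavy chain median fell from 0.68 to 0.27 (9 genes), the same as the other members at 0.27. Dnah9 then gave 0.42, Dnah11 0.25, Dnah2 0.27, Dnah6 0.28, Dnah1 0.16 and Dnah12 0.09. Dnah3 (1.41) and Dnah5 (0.95) stayed higher, and Dnah17 gave -0.61. Under that offset 45 of 49 members were above 0, their median was 0.27 and edgeR called 0. Why long transcripts differed between these libraries was not tested.

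**Figure D3:**
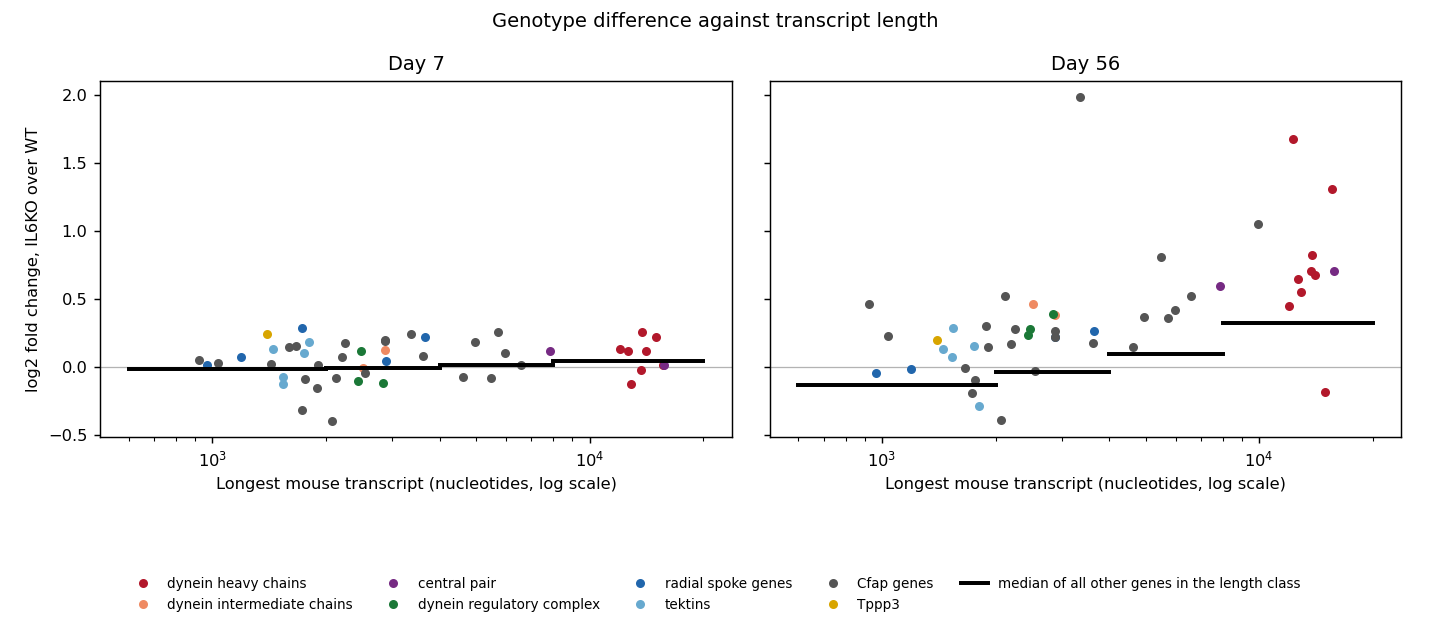
Log2 fold change of IL6KO over WT (y axis) against the length of the longest mouse transcript (x axis, log scale) for motile cilia genes, coloured by family, at day 7 and day 56; black lines are medians of all other genes in 4 length classes. At day 56 the lines climb from -0.13 to 0.33 and members lie mostly above them, whereas at day 7 the lines stay between -0.01 and 0.05.

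Other lists of ciliated cells, none of them members, were read at day 56 beside the same median of all genes (-0.01). The docking and ruler proteins that fix dynein arms to the doublets had 6 of 6 genes above 0 (median 0.35), with Armc4 at 2.34, 2.17 and 3.68 CPM in WT and 5.90, 5.73 and 5.65 CPM in IL6KO. Other axoneme parts had 28 of 31 above 0 (median 0.25), other ciliated cell markers 23 of 26 (median 0.25), and the cytoplasmic factors that assemble dynein arms 9 of 10 (median 0.18). Regulators of multiciliation had 12 of 15 above 0 (median 0.21), with Rfx2 at 20.5, 21.1 and 18.6 CPM in WT and 29.0, 25.2 and 23.4 CPM in IL6KO. Intraflagellar transport, which builds primary and motile cilia alike, had 21 of 30 above 0 (median 0.08). No gene of these lists was called by edgeR at day 56.

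Markers of other cells were read in the same libraries, beside the same median of all genes (-0.01). Alveolar type 2 markers had 8 of 10 above 0 (median 0.07), alveolar type 1 markers 4 of 8 (0.04) and pan-epithelial genes 7 of 12 (0.08). Neuroendocrine markers had 4 of 7 above 0 (0.06), airway cartilage markers 2 of 4 (-0.04) and mesothelial markers 2 of 6 (-0.32). Scgb1a1 overlapped between genotypes, at 11645, 10150 and 8938 CPM in WT and 11991, 11015 and 9958 CPM in IL6KO. Of 12 airway secretory markers tested 10 were above 0 (median 0.55, beside 0.28 for the motile cilia genes) and 0 were called. Over the 16 listed, the median deviation from the day mean was -0.09, -0.17 and -0.06 in WT and 0.21, 0.13 and 0.16 in IL6KO. At day 7, 11 of 13 were above 0 (median 0.39) and 1 was called higher, where 0.933% of all genes were. Of 6 airway basal cell markers tested 5 were above 0 (median 0.46). The basal cell markers summed to 9.26, 6.59 and 8.96 CPM in WT and 16.2, 12.1 and 7.64 CPM in IL6KO. Airway cartilage markers, which would come with large airways, summed to 26.0, 30.4 and 18.6 CPM in WT and 22.9, 21.8 and 23.8 CPM in IL6KO. Cardiomyocyte markers, 9 of 9 tested above 0, summed to 47.9, 128 and 430 CPM in WT and 671, 534 and 325 CPM in IL6KO, so that WT libraries 1 and 2 were low there too. The part of these markers, and of heart muscle in the pieces of lung, in the ciliary difference was not tested.

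Whether the genotype difference itself changed between days was tested as an interaction over all 12 libraries. No member of 50 was called (0% of all genes were called higher and 0% lower), and DESeq2 and limma-voom called 0 members. By edgeR 10 members had an unadjusted p under 0.05, all towards a larger difference at day 56. Of all 13865 genes tested, 590 reached it in that direction and 453 in the other. The median interaction was 0.20 on the log2 scale, beside 0.003 over all genes, with the dynein heavy chains at 0.57. Dnah2 had the smallest adjusted p (interaction 0.74, SE 0.21, adjusted p = 0.490 by edgeR). The largest values were those of Cfap58 (1.74), Dnah5 (1.31) and Cfap74 (0.89), and the lowest those of Tekt5 (-0.47), Cfap58l1 (-0.44) and Dnah17 (-0.39). Without WT library 3 of day 56, edgeR called 4 members (Dnah2, Dnah5, Dnah6 and Hydin), all towards a larger difference at day 56, where 3.15% of all genes were called in that direction and 1.11% in the other. Without WT library 1 of day 7 the heavy chain median was 0.35, that of the other members went from 0.17 to 0.07, and the members above 0 went from 43 of 50 to 32 of 50. With the length offset the heavy chain median was 0.20, the same as that of the other members.

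From day 7 to day 56 in WT lung, 2 of 50 members rose and 0 fell, against 6.72% of all genes called higher and 8.05% lower. Cfap65, known for its role in the sperm tail, went from 55.9, 38.9 and 33.4 CPM to 68.1, 82.8 and 56.4 CPM (log2 fold change 0.66, SE 0.18, adjusted p = 0.0255 by edgeR). Tppp3 went from 299.7, 253 and 252 CPM to 456, 425 and 314 CPM (0.53, SE 0.16, adjusted p = 0.0383 by edgeR). The groups did not overlap for either gene, although CPM were scaled within each day's table. The median of all members was 0.03, close to 0.01 over all genes, and fell below 0 without WT library 3 of day 7 (-0.07) or of day 56 (-0.03). Tekt5 (0.74) and Cfap221 (0.54), which were not called, and Cfap65 had the largest values, and Cfap58 (-0.64), Cfap74 (-0.50) and Dnah5 (-0.46) the lowest. Leaving out 1 library gave 0 to 8 calls. There were 0 without WT library 2 or 3 of day 7 or without WT library 1 or 2 of day 56, and 8, all higher, without WT library 1 of day 7, where 4.1% of all genes were called higher. Without WT library 3 of day 56 there were 3 higher and 4 lower, against 12.3% and 13.8% of all genes.

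In IL6KO lung 7 of 50 members rose from day 7 to day 56 and 0 fell, against 3.4% of all genes called higher and 4.92% lower. The median of the members was 0.26, beside 0.03 over all genes. The 7 were the heavy chains Dnah9, Dnah11 and Dnah2, with Hydin, Drc7, Cfap44 and Cfap65. Dnah9 went from 35.9, 31.5 and 37.0 CPM to 72.6, 69.1 and 75.2 CPM (log2 fold change 1.02, SE 0.19, adjusted p = 0.0046 by edgeR). Cfap44 went from 56.0, 55.0 and 52.8 CPM to 103, 105 and 124 CPM (0.99, SE 0.19, adjusted p = 0.0076 by edgeR). Each of these 2 genes had tight replicates and groups far apart.

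The other 5 called genes rose by less: Dnah11 by 0.80, Hydin by 0.81, Cfap65 by 0.76, Dnah2 by 0.68 and Drc7 by 0.55 on the log2 scale. Cfap58 (1.10) had the highest fitted value, and Cfap58l1 (-0.30), Cfap36 (-0.11) and Dnah17 (-0.10) the lowest, none of them called. The calls dropped to 3 without IL6KO library 1 or 2 of day 7, where 1.72% and 1.56% of all genes were called higher, and to 4 without IL6KO library 3 of day 56, where 2.3% were. They numbered 12 without WT library 3 of day 56, beside 5.53% of all genes. Other genes of 8000 nucleotides or more had a median of 0.21 in this comparison, and members of that class 0.68. With the length offset Dnah2 gave 0.38 and was not called (adjusted p = 0.0554 by edgeR), Dnah11 gave 0.50 and Hydin 0.47, both still called, and Spag17 (0.50) and Tppp3 (0.53) were called in addition. The difference between the genotypes' changes is the interaction above, in which no member was called.

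The regulators that start multiciliation, a list outside the members, were also compared between days. In WT lung 6 of 17 fell from day 7 to day 56 and 0 rose, against 8.05% of all genes called lower and 6.72% higher. In IL6KO lung 5 fell and 2 rose, against 4.92% and 3.4%. Mcidas, which commits a cell to making many cilia, went from 1.79, 1.70 and 1.38 CPM to 0.468, 0.177 and 0.486 CPM in WT (log2 fold change -2.17, SE 0.35, adjusted p = 0.00117 by edgeR). In IL6KO it went from 1.16, 1.51 and 1.18 CPM to 0.608, 0.463 and 0.545 CPM (-1.27, SE 0.33, adjusted p = 0.0339 by edgeR). The day 56 values of Mcidas rest on few reads: 3 counts equal 0.156, 0.131 and 0.208 CPM in the WT libraries of that day. Ccno, needed to multiply centrioles, went from 12.3, 8.99 and 10.1 CPM to 2.24, 2.65 and 2.57 CPM in WT and from 6.48, 8.54 and 10.7 CPM to 4.14, 3.36 and 1.34 CPM in IL6KO. Plk4 (-1.31 in WT and -1.08 in IL6KO) and Stil (-1.61 and -1.39), which copy centrioles in dividing cells as well, also fell. Rfx2 rose in IL6KO, by 0.62 (adjusted p = 0.0162 by edgeR).

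Among other ciliated cell markers, 2 of 24 rose and 1 fell in WT, shares near those of all genes (6.72% called higher and 8.05% lower), and 3 rose and 1 fell in IL6KO, against 3.4% and 4.92%. Sntn, a protein of the ciliary tip, rose in WT (0.51) and Vwa3a in WT (0.60) and IL6KO (0.53), while Tubb4b, a tubulin of axonemes and of other cells, fell in both (-0.60 and -0.38). Lrrc23, a radial spoke protein, shows how far day and table are joined: it stood at 42.9 to 58.6 CPM in all 6 day 7 libraries and at 0 in 5 of 6 day 56 libraries. Scgb1a1 read 4976 to 7223 CPM at day 7 and 8938 to 11991 CPM at day 56.

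The rat lung CD4-positive isolates carried little of the cilium. Of 55 members in that table, 30 had a mean of at least 0.5 CPM and 9 of at least 5 CPM, and 51 were lower in every isolate than in every lung library. The highest means apart from Dnah17 belonged to members that many cell types make, Cfap20 (26.8 CPM) and Cfap36, and to Tppp3 (17.8 CPM). Without Dnah17 the members summed to 124 to 141 CPM. Lung epithelium was present at a low level in these isolates, with Sftpc at 1606 and 1067 CPM in WT and 346 and 364 CPM in IL6KO, and its part in the ciliary reads was not tested.

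Dnah17, a heavy chain known from the outer arms of sperm tails, was the exception. It gave 596 and 588 counts in the WT isolates and 410 and 243 in the IL6KO isolates, or 52.2, 45.5, 34.0 and 21.1 CPM. In whole lung it lay between 0.572 and 1.53 CPM in all 12 libraries. The lowest isolate was thus above every lung library, and the WT isolates were above the IL6KO isolates, a difference that rests on 2 libraries each and was not tested here. Cd4 itself stood at 610 to 771 CPM in the isolates and 18.8 to 50.9 CPM in lung. How reads on the opposite strand were counted is not given in the sources used here, so transcripts that overlap Dnah17 cannot be told apart from it.

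**Figure D4:**
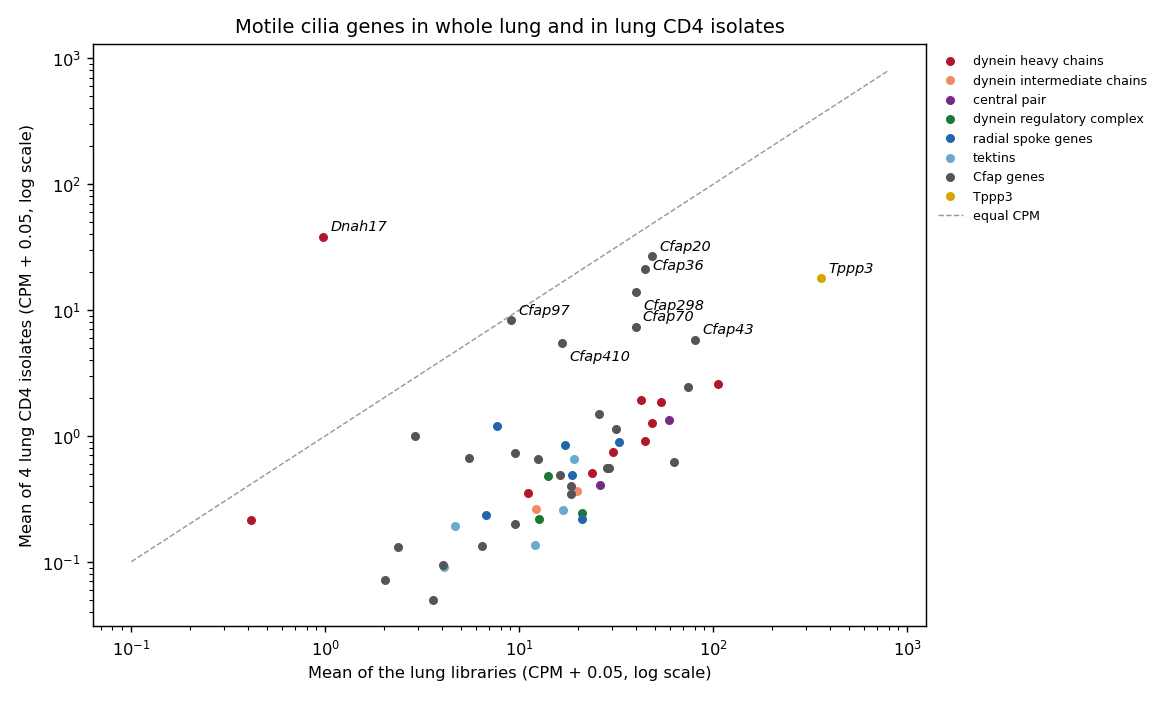
Mean level of each motile cilia gene in the rat lung libraries (x axis, CPM + 0.05, log scale) and in the 4 lung CD4 isolates (y axis, CPM + 0.05, log scale), coloured by family, with a dashed line at equal levels. Dnah17 lies far above the line, at a mean of 38.2 CPM in the isolates, and the other labelled genes lie below it.

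In the mouse splenic CD4-positive cells, a separate table of another species, 13 of 52 members had a mean of at least 0.5 CPM. Dnah8, the heavy chain that gave almost no reads in rat lung, stood at 31.5, 39.9 and 42.0 CPM in tdTomato-positive and 39.3, 40.5 and 25.0 CPM in tdTomato-negative cells, so that the fractions overlapped. Dnah17 stood at 2.15, 0.11 and 1.84 CPM in tdTomato-positive and 0.92, 4.60 and 2.92 CPM in tdTomato-negative cells. Hydin, Dnah5 and Dnah9 were at 0 counts in all 6 libraries.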

How the data were processed

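The measurements are RNA-seq read counts of 12 rat lung, 4 rat lung CD4 and 6 mouse spleen CD4 libraries. The authors deposited raw counts, 1 column per library and replicates not pooled, per the file headers. The submitters' processing notes give GRCm38, a mouse build, for rat and mouse samples alike. Aligner, counting tool and annotation: not given in the sources used here. The labels do not say that replicates are separate animals, so p-values measure the spread between libraries, which may be technical.

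After filterByExpr and TMM scaling, edgeR 4.0.16 in R 4.3.3 fitted robust quasi-likelihood models. P-values were adjusted by Benjamini-Hochberg across every gene tested, and called means an adjusted p under 0.05. Genotypes were compared within each day's 6 libraries. The interaction and the day contrasts used all 12 libraries and the 20230 symbols found in both tables, and the 2 day contrasts and the interaction share libraries. CPM are TMM-scaled within a table, and log2 fold changes are IL6KO over WT or day 56 over day 7. The scripts were tested on simulated data. Of the 59 genes described, 51 were in both lung tables, 4 in the day 7 table and 4 in the day 56 table. After the filter 54 were tested at each day and 50 in the fit over both.

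The genes and lists were chosen with earlier results of these data known, so lists get counts and medians and no test of their own. Named genes were 22 set by name (where described), every called member, the 3 highest and 3 lowest log2 fold changes of each comparison, the 3 most abundant of each family, and at most 4 genes of any other list by smallest p. Alternatives were DESeq2 1.42.0, limma-voom (limma 3.58.1), size factors by RLE, all genes with at least 1 count, the replicate number as a block, leaving out each library, a minimum mean of 5 CPM for members and no such minimum. A transcript length offset was added after seeing the data.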

Additional observations from a re-analysis of the deposited data

Results flagged for a closer look

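Dnah17 gave a mean of 38.2 CPM in the rat lung CD4 isolates, above all 12 lung libraries, in libraries that no comparison of the report tests. In the mouse spleen CD4 fractions the means of Cfap20 (56.3 CPM), Cfap298 (50.0 CPM), Cfap97 (33.9 CPM), Dnah17 (2.09 CPM) and Dnah8 (36.4 CPM) were above all rat lung libraries in which the gene was listed. The spleen table is of another species and was scaled separately, so these values are set side by side and not compared. The lung groups hold 3 libraries each and were not tested for single outlying values. In the interaction test no member was called with all 12 libraries.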

How the results depend on the processing

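No member was called at day 7 under any alternative run. At day 56 the count of 0 became 6 with DESeq2, where 0.684% of all genes were called higher. It was 0 to 17 with 1 library left out (17 without WT library 3, beside 5.4% of all genes called higher and 3.23% lower). The interaction gave 0 to 4 calls with 1 library left out (4 without WT library 3 of day 56, beside 3.15% of all genes). The 2 calls of WT lung between days became 4 with the length offset, where 7.3% of all genes were called higher. They were 0 to 8 with 1 library left out, where 3.43% to 12.3% of all genes were called higher and 5.41% to 13.8% lower. The 7 calls of IL6KO lung became 11 with DESeq2, where 4.62% of all genes were called higher, and 3 to 12 with 1 library left out, where 1.56% to 5.53% were. The median log2 fold change of all members moved by less than the spread of the library medians under every alternative, in all 5 comparisons. That spread, an SD, was 0.17 at day 7, 0.11 at day 56 and 0.14 in the fit of 12 libraries. The heavy chain median moved by more with the length offset, from 0.68 to 0.27 at day 56 and from 0.57 to 0.20 in the interaction.

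With the replicate number as a block, 1 member was called higher in WT lung between days, where 5.3% of all genes were called higher and 6.93% lower. In IL6KO lung 7 members were called higher, against 2.73% and 4.2% of all genes. In the other 3 comparisons 0 members were called. Of all genes, 1.84% were called higher and 1.94% lower at day 7, and 0% in either direction at day 56 and in the interaction. WT and IL6KO libraries share only a number: the correlation of their deviations was 0.07, 0.11 and 0.29 at day 7 and -0.19, -0.09 and -0.02 at day 56.

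For the named genes, 759 combinations of gene, comparison and setting kept their direction and their side of the threshold, 27 lost a call, 16 gained one and 11 changed sign. The length offset gave 0.12 for Rsph1 and 0.10 for Rsph9 at day 56. With 1 library left out, the day 56 value ran from -0.082 to 0.097 for Rsph1, from -0.124 to 0.072 for Rsph9 and from -0.011 to 0.132 for Tekt4. At day 7 it ran from -0.67 to 0.042 for Cfap100 and from -0.25 to 0.058 for Cfap53. Between days it ran from -2.25 to 0.15 for Cfap58 in WT, and from -1.23 to 0.054 for Cfap58l1 and -0.28 to 0.080 for Dnah17 in IL6KO. None of these genes was called in those comparisons, and the causes were not tested. With 3 libraries a group and few counts a library, changes in Dnah17, Dnah8 and Cfap73 could not be resolved. Those in Cfap58 could not be resolved either, as its counts were uneven, from 0 to 107 at day 56. A count of 0 in a library allows up to 3 counts, and such limits cover counting error only.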
